A study of Mus musculus with 22 samples.

Results

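The cells described here are a cluster of 329 cells, called macrophages here, among 54890 whole cells from the mediobasal hypothalamus of 12 male ob/ob mice. They were chosen from the deposited clustering as the 1 cluster with the highest percent of cells holding at least 1 unique molecular identifier (UMI, a counted mRNA molecule) of Mrc1, the mannose receptor. Mrc1 was detected in 41.0% of the cells of this cluster, which is number 16, and in 0.557% of the next cluster in that order. All mice lacked leptin (ob/ob) and were 11 weeks old. Each received a single intracerebroventricular (icv) injection of either 3 µg of human recombinant fibroblast growth factor 1 (FGF1) or phosphate-buffered saline (vehicle), with the vehicle mice pair-fed, and whole cells were taken on Day 5 from 6 FGF1 and 6 vehicle mice. The same series also holds nuclei from other mice on Day 1 (3 FGF1 and 3 vehicle) and Day 5 (2 and 2). Leptin deficiency and obesity were common to both groups, so no lean control enters any comparison.

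Border macrophages are the resident macrophages of the meninges, the perivascular spaces and the choroid plexus. Unlike microglia, which lie in the parenchyma, they stand between blood, cerebrospinal fluid and brain. They are known for scavenger and lectin receptors that take up proteins from these fluids, and a subset carries MHC class II, the molecules that present peptides to CD4+ T cells. The mediobasal hypothalamus borders the third ventricle and the median eminence, and an icv injection delivers its load into the ventricle.

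The libraries differed in what they list. Each held 988 to 2959 of the 16304 genes at 0 in every one of its cells, while only 25 to 190 genes occurred in exactly 1 cell of a library, and 3463 genes were at 0 in at least 1 library. A gene at 0 in a whole library is called unlisted there, and the reason was not tested. Mrc1 was unlisted in FGF1 mouse 21 and vehicle mouse 27. Mice 6 (FGF1) and 22 (vehicle), which share an authors' batch, stood apart. UMIs of H2-Aa, H2-Ab1 or H2-Eb1 occurred in 13.01% and 9.83% of their cells outside the macrophage and microglia clusters, against 0 to 3.46% in the other 10 mice. In the cluster with ependymal markers these shares were 63.2% (of only 19 cells) and 68.9%, against 0 to 11.2% in the other mice, and in microglia they were 31.1% and 62.6%, against 0 to 6.48%. The main results on class II are therefore also given without these 2 mice. Of the 329 macrophage barcodes, 24 had a sequence that also occurred in another mouse, and in 0 cases was that other cell a macrophage.

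The label was checked against markers other than Mrc1. They were among the genes clustered, so their values describe the cluster. Pf4, a platelet-factor chemokine of border macrophages, was detected in 42.6% of the cluster and 0.481% of microglia (cluster 8, 1870 cells). Lyz2, lysozyme of myeloid cells, was detected in 78.4% of the cluster, 22.0% of microglia and 1.34% of all other cells. The share of a marker's UMIs in whole cells that lay in the cluster ranged widely. It was 84.8% for the chemokine Ccl24, 82.4% for the hemoglobin scavenger receptor Cd163, 62.3% for Pf4 and 45.3% for Lyz2, but 22.3% for Folr2, 21.4% for Stab1, 7.92% for Maf and 6.46% for Dab2, most of whose UMIs lay in other cells. Of the listed border macrophage markers other than Mrc1, 15 were in the table and 11 were found in at least 10% of the cluster. Defining microglial genes were low, with Tmem119 in 4.26% and P2ry12 in 3.95% of the cluster. The label did not describe all cells. UMIs of Ccr2 and Plac8, genes of monocytes and their descendants, were found in 11.2% and 11.9% of the cluster, mostly in cells without Mrc1 or Pf4. Ccr2 was listed in 3 and Plac8 in 4 of 12 libraries, so these shares also count cells in which the gene could not be read. Without mice 6 and 22, Ccr2 was found in 7 of 242 cells. All 7 lay in FGF1 mouse 28, which held 40 macrophages, because no other library left lists Ccr2. Genes of other cell types were found too. Mbp of oligodendrocytes was in 75.1% of macrophages and 78.5% of microglia, and the astrocyte glutamate transporter Slc1a2 in 64.7% and 62.8%. The summed level of 5 genes of vascular leptomeningeal cells (VLMC, fibroblasts of the meninges) had medians of 181 and 161 UMIs per 1000000 in macrophages of FGF1 and vehicle mice, with 1465 in FGF1 mouse 7, against a median of 14.8 in microglia. For 5 endothelial genes the medians were 69.5 and 351 against 88.6. The part of these cells in the results was not tested. The cluster is called macrophages below.

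The cells were shallow. The median was 1290 UMIs and 665 genes per cell, against 1263.5 UMIs and 679 genes in microglia. In 178 of 329 cells (54.1%) mitochondrial and ribosomal UMIs were both within the 20% limit of the methods, and in microglia the share was 54.5%. The FGF1 mice 6, 7, 10, 21, 28 and 36 gave 49, 17, 11, 0, 40 and 58 macrophages. The vehicle mice 20, 22, 25, 27, 29 and 35 gave 47, 38, 18, 5, 9 and 37. Comparisons of expression used the 9 mice with at least 10 macrophages, 5 FGF1 and 4 vehicle, which held 22623 to 88572 macrophage UMIs each.

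Macrophages were first set beside microglia of the same mice. The clustering had used these genes, so the differences are a description with no test. Levels are UMIs of a gene per 1000000 UMIs (CPM), and ratios are means over 9 mice of log2 ratios with 10 CPM added. Of 541 genes found in at least 25% of macrophages, 22 (4.07%) were at least 2-fold higher in macrophages, 17 of them in every mouse. Of 533 genes found in at least 25% of microglia, 89 (16.7%) were at least 2-fold higher in microglia, 75 of them in every mouse. Cells with at least 1000 UMIs, 272 macrophages and 1478 microglia, were also thinned to 1000 UMIs. When detection was compared in them instead of level, the second count was 45.

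The genes highest over microglia were those of a chemokine, a lectin receptor and antigen presentation. The lectin receptor is Mrc1, which chose the cluster, so its high level over microglia was fixed in advance. Pf4 was 1003 ± 861 CPM in macrophages and 2.93 ± 3.15 CPM in microglia (SD, n = 9), a log2 ratio of 5.68 ± 1.55. By mouse, macrophage Pf4 was 85.4, 819, 341, 486 and 1434 CPM in FGF1 mice 6, 7, 10, 28 and 36, and 1113, 157, 2078 and 2514 CPM in vehicle mice 20, 22, 25 and 35. The 2 lowest values were those of mice 6 and 22. Mrc1 was 542 ± 337 CPM against 4.11 ± 4.12 CPM, a log2 ratio of 5.07. By mouse, Mrc1 was 158.7, 948, 383, 260.5 and 971 CPM in the same FGF1 mice and 354, 199, 707 and 898 CPM in the same vehicle mice, again with mice 6 and 22 lowest. Lyz2 ranged from 1619 to 5108 CPM in macrophages, with a log2 ratio of 3.51. All 3 genes were higher in macrophages in 9 of 9 mice, and without mice 6 and 22 the log2 ratios were 6.26, 5.42 and 3.70.

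Class II genes formed the second group. H2-Eb1 and H2-Ab1, β chains of the class II molecules, had log2 ratios of 5.29 ± 1.13 and 4.69 ± 1.17 and were higher in 9 of 9 mice, and without mice 6 and 22 the ratios were 5.79 and 5.20. H2-Aa, an α chain, had a ratio of 4.65 with vehicle mouse 25, where it was unlisted, counted as 0, and of 5.24 in the 8 mice whose library lists it, in all of which it was higher. Cd74, the invariant chain that guides class II through the cell, was 3162 ± 2129 CPM against 372 ± 748 CPM. H2-DMa, which loads peptides, did not follow, with a log2 ratio of -0.01 ± 1.31. The other genes of the 15 highest were Wfdc17 (4.24), the endocytic adaptor Dab2 (3.43), Ifitm2 (3.29), Crip1 (3.20), the galectin Lgals1 (2.95), the neutrophil chemokine Cxcl2 (2.93, higher in 8 of 9 mice), Ms4a6c (2.66) and Ifitm3 (2.01, higher in 8 of 9 mice).

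**Figure D1:**
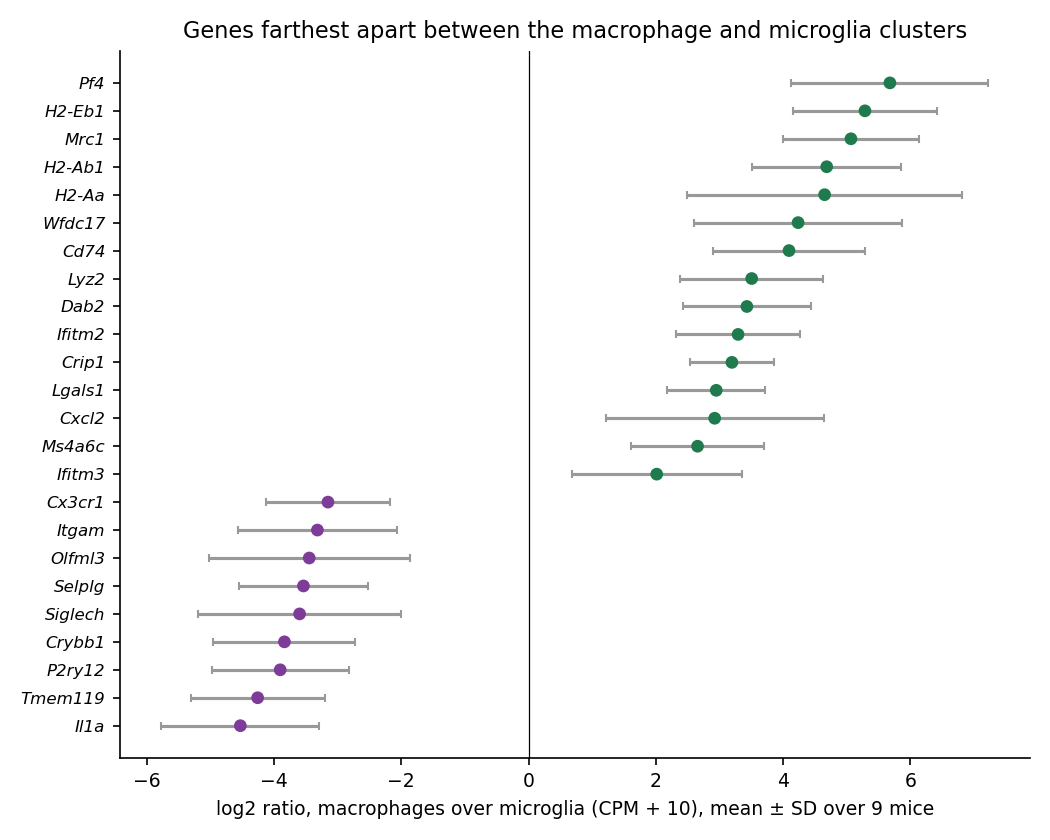
Mean log2 ratio of macrophages over microglia (CPM + 10) for the 15 genes highest in macrophages and 9 of those highest in microglia, with SD over 9 mice. Pf4 lies farthest to the right at 5.68 and Il1a farthest to the left at -4.53.

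The proximal promoters of some of these genes are shown because class II genes are known to share control elements. The 120 bases upstream of the RefSeq transcription start (GRCm38.p6) are printed 5′ to 3′ on the gene's strand, with a motif match in capitals. In H2-Eb1 (chr17:34305747-34305866, plus strand) and H2-Aa (chr17:34287824-34287943, minus strand) the capitals mark the class II Y box CTGATTGG. In Pf4 (chr5:90772315-90772434, plus strand) they mark the core of PU.1, GAGGAAGT, read on the opposite strand.
H2-Eb1: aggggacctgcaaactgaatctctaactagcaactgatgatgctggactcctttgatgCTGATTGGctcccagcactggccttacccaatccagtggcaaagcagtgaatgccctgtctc
H2-Aa: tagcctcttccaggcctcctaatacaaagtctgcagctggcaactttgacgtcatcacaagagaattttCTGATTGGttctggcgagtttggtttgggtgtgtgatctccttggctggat
Pf4: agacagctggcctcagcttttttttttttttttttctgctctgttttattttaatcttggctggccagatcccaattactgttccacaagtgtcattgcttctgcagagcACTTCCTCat
In windows of 300 bases, both strands searched, the Y box letters were found in 4.31% of 27025 promoters and in 2 of the 4 class II genes that have one in the table. The PU.1 letters were found in 3.28% of all promoters and in 1 of the 12 matched genes among the 15. A match is a description of letters and does not show a bound site.

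Of 13 microglial marker genes, 11 were lower in macrophages in every mouse, and Fcrls and Sparc were not. The genes named next are the lowest by choice. Tmem119, a microglial surface protein, was 31.9 ± 26.6 CPM in macrophages and 646 ± 169 CPM in microglia, a log2 ratio of -4.26. The purine receptor P2ry12 had a ratio of -3.90, the fractalkine receptor Cx3cr1 -3.15 and the cytokine gene Il1a -4.53. Crybb1, Siglech, Selplg, Olfml3 and the integrin Itgam were also among the 10 lowest, at -3.84, -3.60, -3.54, -3.45 and -3.32.

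Functional groups split in different ways. In the border macrophage list without Mrc1, which chose the cluster, 12 of 15 members had a ratio above 2-fold and 0 were at least 2-fold lower. Only 4 of the 15 (26.7%) were higher in every mouse. Some were unlisted in several of the 9 libraries, such as Cbr2, listed in 3, and Cd163 and Ccl24, in 4 each. The scavenger receptor Stab1 was higher in 9 of 9 mice (log2 ratio 1.32). Of 10 complement genes, 4 were lower in macrophages in every mouse, C1qa, C1qb and C1qc among them at -1.24, -1.26 and -1.36. Of 19 lysosomal genes, 8 were lower in every mouse, such as the proteases Ctsd (-2.54) and Ctss (-1.94), while Ctsc was higher in every mouse (0.72). Among chemokines, Ccl2 was higher in 9 of 9 mice (1.44), and Ccl4 was lower in 9 of 9 (-2.12). The lipid carrier Apoe was higher in every mouse (1.47), and the lipid receptor Trem2 was lower in every mouse (-1.98). Of 13 macrophage regulators, 6 were lower in every mouse, among them the growth factor receptor Csf1r (-1.63). Over all 16304 genes the median log2 ratio was -0.09, with 2.20% lower and 0.503% higher in every mouse. Over the 632 genes found in at least 25% of either cluster the median was 0.05, with 14.4% lower and 5.54% higher in every mouse. A ratio above 2-fold was found in 129 of the 16304 and in 22 of the 632 genes. FGF receptors were scarce. Fgfr1 was found in 7.90% of macrophages and 3.90% of microglia, and Fgfr3 in 15.8% and 14.0%.

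Marker pairs within the cluster were then counted. Mrc1 and Pf4 occurred together in 93 cells, 68.9% of the 135 with Mrc1 and 66.4% of the 140 with Pf4. Mrc1 and H2-Aa occurred together in 23 cells. Ccr2, the receptor for Ccl2, was found in 37 cells, 32 of which also had H2-Aa. It was listed only in mice 6, 22 and 28. Without mice 6 and 22, 7 cells had Ccr2 and 6 of these had H2-Aa. No library listed both Ccr2 and Cd163, so their overlap could not be read. With class II meaning a UMI of H2-Aa, H2-Ab1 or H2-Eb1, 140 cells had Mrc1 or Pf4 alone, 118 had class II alone, 42 had both and 29 had neither.

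The class II cells and the Mrc1/Pf4 cells differed in depth and in other genes. Their median UMIs per cell were 1478.5 and 1185. Plac8 was found in 28.0% of the class II cells and in 0 of the 140 Mrc1/Pf4 cells, and Ccr2 in 24.6% and 1 cell. Cd163 was found in 0.847% of the class II cells and 29.3% of the Mrc1/Pf4 cells, and Lyz2 in 61.0% and 87.1%. Of the 9 libraries, Plac8 was listed in 4, Ccr2 in 3 and Cd163 in 4. Mice 6 and 22 list Plac8 and Ccr2 but not Cd163, so these shares also follow which libraries the cells came from. Of the 118 class II cells, 60 came from mice 6 and 22 (35 and 25), which gave 3 of the Mrc1/Pf4 cells. Without these mice Plac8 was found in 2 and Ccr2 in 4 of 58 class II cells. Of the mice left, only FGF1 mouse 28 lists Ccr2, with 20 class II cells. Only FGF1 mouse 7 and vehicle mouse 35 list Plac8, with 7 and 4 class II cells. In the rest of the 58 cells the gene could not be read, so the 58 understate both shares. Without mice 6 and 22, 137 cells had Mrc1 or Pf4 alone and 26 had both. Levels were therefore also compared within FGF1 mice 28 and 36 and vehicle mouse 20, which held at least 10 cells of each set.

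In these 3 mice the peptide-loading genes H2-DMa and H2-DMb1 were higher in class II cells each time, while Tap1, Tap2 and Tapbp were higher in 1 of 3 mice each. Plac8 was unlisted in all 3 mice and Ccr2 in mice 36 and 20, and in mouse 28 Ccr2 was 2.27 UMIs per 10000 in class II cells against 0.753. H2-DMa was 3.57, 4.92 and 2.06 UMIs per 10000 in the class II cells of mice 28, 36 and 20, against 1.505, 0 and 0.279 in the Mrc1/Pf4 cells. Il1b, an inflammatory cytokine, was 1.95, 7.38 and 10.3 against 0.753, 3.28 and 1.12. Irf8, a regulator of monocyte and dendritic lineages, and Crip1 were also higher in all 3. The sets held 10 to 31 cells per mouse, so low values rest on few UMIs. In mouse 20, Irf8 was 0.686 against 0.279 and H2-DMb1 0.686 against 0. Ccl2, Ccl7, Ccl12 and Stab1 were lower in class II cells in all 3 mice. Other chemokines were mixed, with Ccl3, Ccl4 and Cxcl2 higher in class II cells in 1 of 3 mice and Cxcl16 in 2. The receptors Axl and Scarb2 were higher in all 3. Axl was close to a tie in mice 28 and 20, at 2.273 against 2.258 and 2.059 against 1.954. Ccl2 was 0.325, 0 and 0 in class II cells against 11.3, 15.97 and 5.86 in Mrc1/Pf4 cells. Stab1 was 0.649, 0.492 and 0.686 against 4.51, 7.87 and 3.07. The transcription factor Maf, Gas6, Csf1r and C1qa, C1qb and C1qc were lower in class II cells in all 3 mice too. Astrocyte genes also differed between the sets. Slc1a2, Slc1a3, Gja1 and Aldoc were higher in class II cells in all 3 mice, and Aqp4 and Agt in 2. Slc1a2 was 15.9, 18.2 and 17.2 in class II cells against 6.77, 3.72 and 15.1. The part of RNA of other cells in these values was not tested. The 2 sets were split on the same counts, so no test was made.

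**Figure D2:**
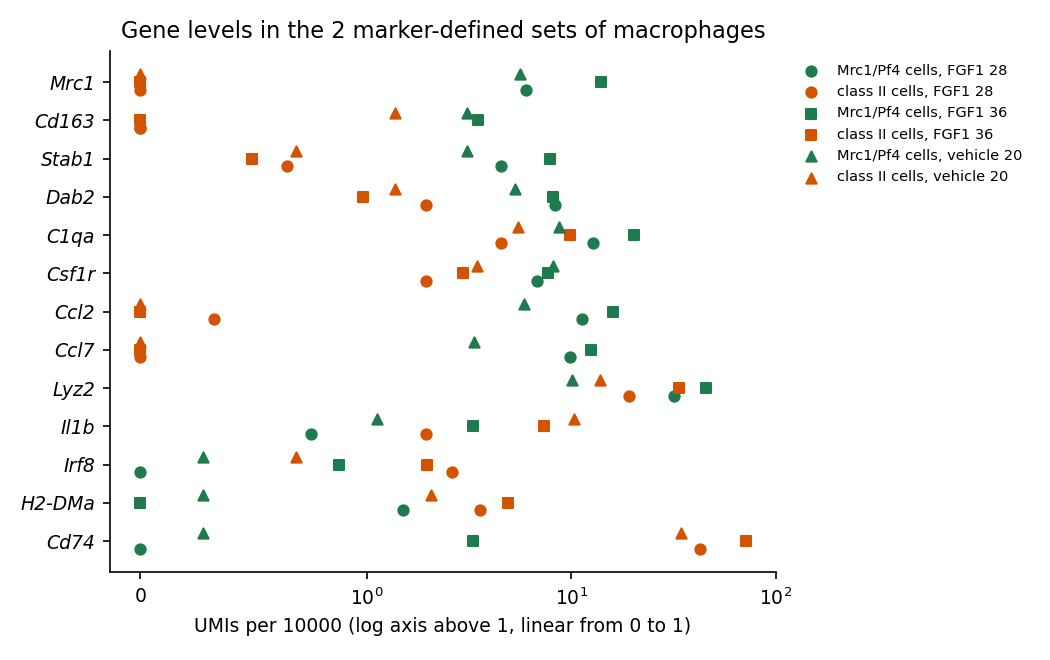
UMIs per 10000 of 13 genes in Mrc1/Pf4 cells (green) and class II cells (orange) of FGF1 mice 28 and 36 and vehicle mouse 20, on an axis that is linear to 1 and logarithmic above. Cd74 and H2-DMa lie higher in the orange symbols, and Ccl2, Ccl7 and Stab1 lie higher in the green symbols, in each of the 3 mice.

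The share of class II cells varied widely between mice. It was 83.7%, 58.8%, 45.5%, 62.5% and 43.1% in FGF1 mice 6, 7, 10, 28 and 36, and 25.5%, 92.1%, 5.56% and 16.2% in vehicle mice 20, 22, 25 and 35. H2-Aa was unlisted in vehicle mouse 25. The groups overlapped through mouse 22 alone. In other cells the share was 13.01% and 9.83% in mice 6 and 22, 3.46%, 0.786%, 1.54% and 1.67% in FGF1 mice 7, 10, 28 and 36, and 0.521%, 0.410% and 0.455% in vehicle mice 20, 25 and 35. Without mice 6 and 22, the FGF1 mice were thus above the vehicle mice in other cells too, and the part of this in the macrophage share was not tested. The summed level of 8 monocyte and dendritic cell genes in macrophages was 2624 CPM in FGF1 mouse 6, 584 CPM in vehicle mouse 22, 259 CPM in FGF1 mouse 7 and 208 CPM in FGF1 mouse 28, and 0 to 32.7 CPM in the other 5 mice. Its part in the class II share was not tested, and Ccr2 and Plac8 among its genes are unlisted in some libraries. The means were 58.7% ± 16.3 (SD, n = 5) and 34.9% ± 39.0 (n = 4), a difference of 23.9 points (two-sided exact permutation test, p = 0.254, adjusted over 4 measures 0.797). Within the 3 batches with both mice the difference was 19.5 points, higher in 2 of 3 pairs. Without mouse 22 it was 42.9 points with an exact permutation p = 0.0179, the smallest the test can give there, and adjusted p = 0.0714. Without mice 6 and 22 it was 36.7 points (exact permutation p = 0.0286, also the smallest possible, adjusted p = 0.114). In mice whose library lists all 3 genes it was 14.1 points (p = 0.554, exact permutation). The difference did not pass the threshold after adjustment in any of these.

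**Figure D3:**
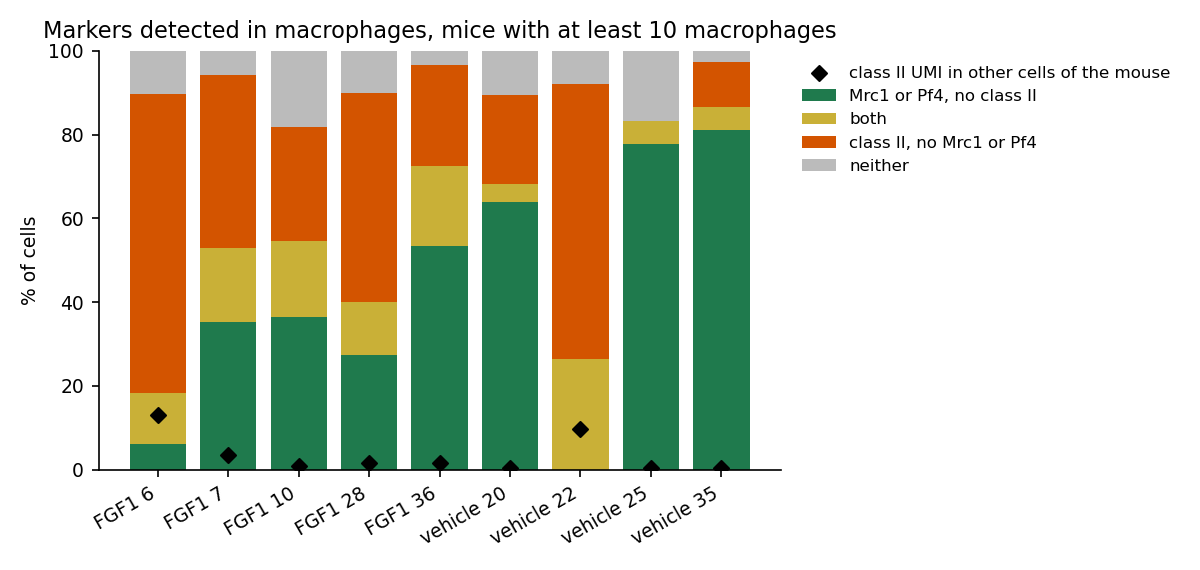
Percent of macrophages with Mrc1 or Pf4, class II, both or neither in the 9 mice with at least 10 macrophages (stacked bars), and percent of other cells of the same mouse with a class II UMI (black diamonds). The diamonds are highest in FGF1 mouse 6 at 13.01% and vehicle mouse 22 at 9.83%.

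The number of macrophages recovered was compared next. They were 2.05%, 0.352%, 0.236%, 0%, 1.03% and 0.806% of all cells in FGF1 mice 6, 7, 10, 21, 28 and 36. They were 0.593%, 0.683%, 0.267%, 0.254%, 0.279% and 0.997% in vehicle mice 20, 22, 25, 27, 29 and 35. The 0 of 2814 cells in mouse 21 allows a share of up to 0.107%. The groups overlapped, with means of 0.746% ± 0.743 and 0.512% ± 0.301 (SD, n = 6 each), and the difference of 0.234 points did not pass (two-sided exact permutation test, p = 0.552, adjusted 0.797). Without FGF1 mouse 6 the difference was -0.0269 points. Of macrophages plus microglia, macrophages made up 13.8% ± 8.21 in FGF1 and 14.99% ± 6.84 in vehicle mice (exact permutation p = 0.797, n = 6 each). UMIs per macrophage were 1325 ± 156 and 1272 ± 163 (exact permutation p = 0.603, n = 5 and 4). Within the 3 batches with both mice they were higher with FGF1 in 3 of 3 pairs, by a mean of 101 UMIs. The exact sign-flip test gave p = 0.25, the smallest possible there.

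**Figure D4:**
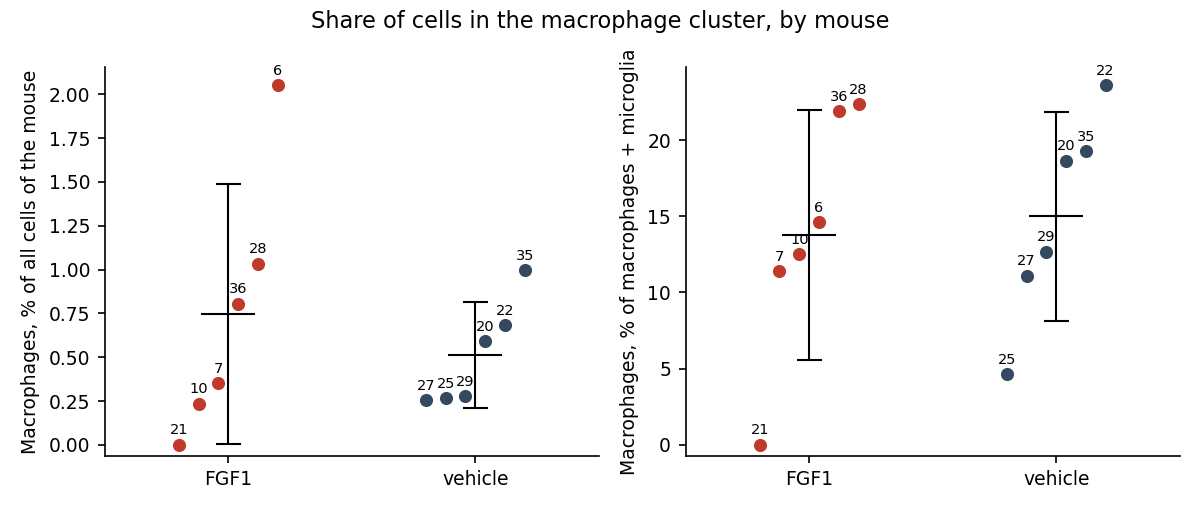
Macrophages as percent of all cells (left) and of macrophages plus microglia (right) in each mouse, labelled by replicate number, with mean and SD per group (n = 6). FGF1 mouse 21 has 0 macrophages and FGF1 mouse 6 has the highest share of all cells at 2.05%.

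Expression in macrophages was then compared between FGF1 and vehicle. Counts were summed per mouse and tested with edgeR's quasi-likelihood test. Of 782 genes tested, 0 (0%) passed a false discovery rate of 0.05, and the lowest adjusted p was 0.735. At an unadjusted p under 0.05 there were 27 genes (3.45%), 13 higher (1.66%) and 14 lower (1.79%) with FGF1, and DESeq2 also called 0. In 8 genes (1.02%) the 2 groups did not overlap. For 368 of the 782 genes the 95% interval lay within a 2-fold change either way, and for the others it reached beyond a 2-fold change at this depth. With the authors' batch as a block, 2 genes were called, S100a6 (log2 fold change 1.85) and the ribosomal protein gene Rpl13 (-1.95), each with an adjusted p of 0.0433 in edgeR. Among the 9 mice only 3 batches held both treatments (mice 6 and 22, 10 and 35, 36 and 25). The calls rest on these pairs. FGF1 mice 7 and 28 and vehicle mouse 20 were alone in their batches. Among them, mouse 28 had the highest Rpl13 of the FGF1 mice, at 4954 CPM. Rpl13 was named after its values were seen, and without vehicle mouse 22 its fold change in the unblocked fit went from -0.62 to 0.08.

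The genes with the smallest p are given as values. In this fit CPM is scaled by TMM and counts only the tested genes. S100a6, a calcium-binding protein, was 2127, 632, 1564, 991 and 1246 CPM in FGF1 mice 6, 7, 10, 28 and 36 and 719, 634, 380 and 361 CPM in vehicle mice 20, 22, 25 and 35. Only FGF1 mouse 7 lay within the vehicle range. The means were 1312 ± 570 and 524 ± 180 CPM, a log2 fold change of 1.31 ± 0.35 (SE, edgeR adjusted p = 0.735). Other cells in this comparison are all cells outside the macrophage cluster, microglia included. In all other cells of the same mice S100a6 was 2628 CPM with FGF1 and 1098 CPM with vehicle (CPM over all genes), a log2 ratio of 1.26. Its part in the macrophage value was not tested. Lyz2 was 5051, 5369, 7220, 4433 and 6930 CPM with FGF1 and 2466, 5536, 3168 and 3468 CPM with vehicle, a log2 fold change of 0.66 ± 0.24 (edgeR adjusted p = 0.984). Vehicle mouse 22 lay within the FGF1 range. In other cells of these mice Lyz2 was 57.6 ± 68.9 CPM with FGF1 and 12.0 ± 4.21 CPM with vehicle, a log2 ratio of 2.17. FGF1 mouse 6 was at 180 CPM there and the other FGF1 mice at 17.7 to 43.0 CPM, and without mouse 6 the log2 ratio was 1.11. Over all 12 mice, microglia held 1029 Lyz2 UMIs and the clusters other than macrophages and microglia held 998. In mouse 6, microglia were 286 of 2388 cells. The part of microglia in the other cells, and of other cells in the macrophage Lyz2 value, was not tested. Itih3 had means of 307 and 966 CPM with FGF1 and vehicle, a log2 fold change of -1.49 ± 0.39, and in other cells the log2 ratio was -1.24. The remaining genes with higher values were Cpe, Nnat, Marcks, the protease Lgmn, Eef1d and Snrpg, with log2 fold changes of 0.67 to 0.91. In other cells the means of all of these were higher with FGF1 too, with log2 ratios of 0.22 (Lgmn) to 0.65 (Nnat). For Lgmn this rested on FGF1 mouse 6, at 286 CPM. The other FGF1 mice were at 120 to 145 CPM, and the vehicle mean was 143 CPM. Those with lower values were Nkain4, Cox7c, Clta, Malat1, Cox6a1, Klf4 and Ndufa11, from -1.43 (Nkain4) to -0.42 (Malat1), and without vehicle mouse 20 these were -0.79 and -0.22. In other cells the lower genes had log2 ratios of -0.47 (Cox6a1) to -0.03 (Ndufa11). The part of other cells in the macrophage values was not tested.

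Marker and class II genes did not pass either. Mrc1 was 796 ± 571 CPM with FGF1 and 793 ± 463 CPM with vehicle, a log2 fold change of 0.01 ± 0.59. Pf4 was 929 ± 768 and 2154 ± 1528 CPM, a log2 fold change of -1.17 ± 0.88, which ranged from -1.85 (without FGF1 mouse 36) to -0.71 (without vehicle mouse 35) with 1 mouse left out. The 5 class II genes tested all had values above 0, with H2-Aa at 1.015, H2-Ab1 at 0.75, Cd74 at 0.65 and H2-Eb1 at 0.49 and a median of 0.66. H2-Aa was counted as 0 in vehicle mouse 25, where it was unlisted. With 1 mouse left out they were lowest without FGF1 mouse 6 for H2-Aa (0.66), H2-Ab1 (0.41) and H2-Eb1 (0.22) and without vehicle mouse 25 for Cd74 (0.37). They were highest without vehicle mouse 22, at 2.13, 1.65, 1.72 and 1.84, where the lowest edgeR adjusted p was 0.0626 (Cd74). Without mice 6 and 22 they were 1.80, 1.35, 1.48 and 1.69 (Cd74 edgeR adjusted p = 0.0559). Over all 782 genes 405 were above 0 and the median was 0.01. The 11 border macrophage genes tested had a median of -0.32, or of -0.21 over the 7 listed in all 9 libraries, the 18 lysosomal genes 0.16 and the 14 immediate early genes -0.35. These counts are descriptions, and 0 members of any list were called.

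**Figure D5:**
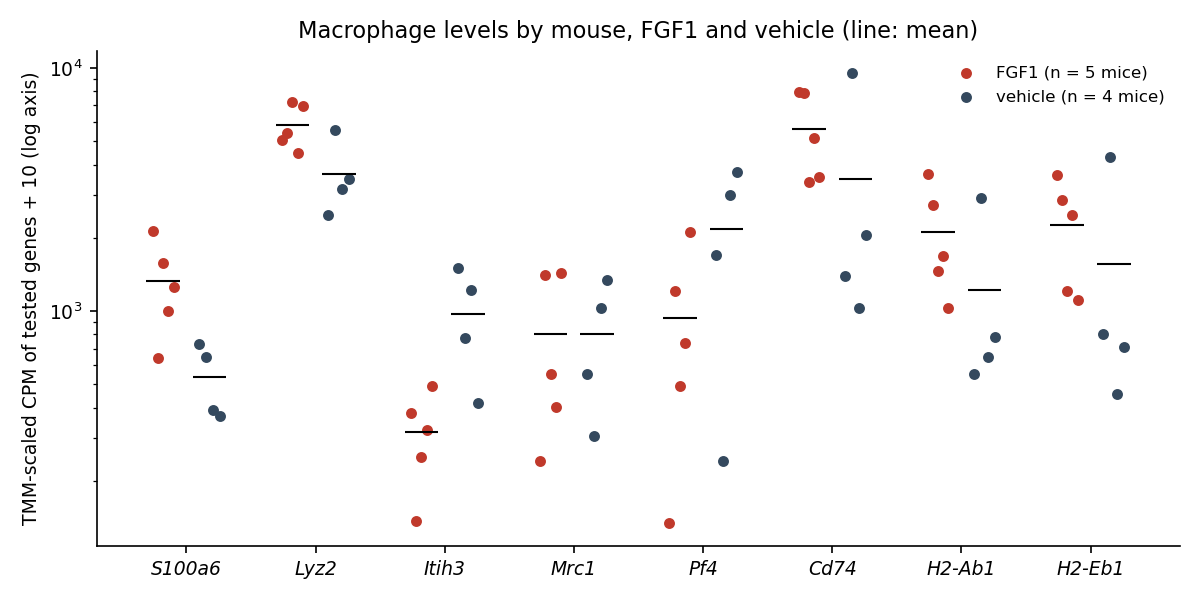
TMM-scaled CPM plus 10 (log axis) of 8 genes in macrophages of 5 FGF1 and 4 vehicle mice, with the mean of each group as a line. S100a6 lies above the vehicle mice in every FGF1 mouse but mouse 7, and vehicle mouse 22 lies far above the other vehicle mice in Cd74, H2-Ab1 and H2-Eb1.

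Last, the effect of FGF1 was compared between macrophages and microglia of the same mice. Of 2676 genes tested in microglia, 7 (0.262%) passed, all lower with FGF1 in this fit. With 1 mouse left out, 6 of 12 fits gave 0 calls, and without vehicle mouse 22 there were 23 higher and 17 lower. In macrophages 0 passed, and of 2150 genes tested for a difference between the 2 effects, 2 passed (0.093%), Saa3 and Ms4a7. None of the 7 microglial genes was among them. Saa3, a serum amyloid gene, had a difference of -8.52 on the log2 scale (edgeR adjusted p = 1.87e-11). Its microglial UMIs were 2521 in FGF1 mouse 6, 44 in mouse 7, 12 in mouse 28, 5 in mouse 10 and 16 in vehicle mouse 22. Its macrophage UMIs were 8 in mouse 6, 1 in mouse 28 and 50 in mouse 22. It was listed in 5 of 12 libraries. Without mouse 6 it could not be tested, and without mouse 22 the difference was -5.64 (edgeR adjusted p = 1.0). Ms4a7, a membrane gene of border macrophages, had a difference of -5.52 (edgeR adjusted p = 0.0255). Its microglial UMIs were 26, 7, 7 and 2 in FGF1 mice 6, 7, 28 and 36 and 0 in every vehicle mouse. Its macrophage UMIs were 9, 10, 7 and 14 in those mice and 15, 21 and 18 in vehicle mice 20, 22 and 35. It was listed in 7 of 12 libraries and unlisted in FGF1 mice 10 and 21 and vehicle mice 25, 27 and 29. Without mouse 6 the difference was -4.62 (edgeR adjusted p = 0.610). With mice 6 and 22 left out, or with only the genes listed in every library used, 0 genes were called.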

How the data were processed

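Whole cells were dissociated enzymatically at 37 °C from the mediobasal hypothalamus, and 10x 3′ libraries were made, 1 per mouse. The authors aligned them with Cell Ranger 1.2 to GRCm38 (mm10), removed doublets with Scrublet and removed neurons, and deposited UMI counts per gene and cell. The metadata hold the mouse, the batch, the cluster number and, in percent as deposited by the authors, the mitochondrial and ribosomal UMIs. Clusters of whole cells carry numbers there and no names. No doublet caller was run here, and normalized values were not used.

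Raw counts were summed per mouse for clusters 16 and 8, with at least 10 cells per mouse. The FGF1 effect was tested with edgeR 4.0.16 (filterByExpr, TMM, quasi-likelihood, Benjamini-Hochberg adjustment, threshold 0.05) and again with DESeq2 1.42.0. The difference between macrophages and microglia was an interaction with the mouse as a block, which absorbs the batch. Shares were compared with exact two-sided permutation tests over mice, adjusted over 4 measures. Pairs of mice within a batch were compared with an exact two-sided sign-flip test of their differences. The scripts were tested on simulated data. The limit given for 0 cells covers counting error only, while edgeR intervals include the spread between mice. Each sample was 1 mouse per the labels. The title of mouse 35 ends in FP where the other vehicle mice have PF, and it was read as vehicle. The deposited metadata mark its cells PF. Without it the class II share differed by 17.6 points and macrophages gave 0 calls.

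The named genes were the 15 with the highest and the 10 with the lowest mean log2 ratio of macrophages over microglia among genes in at least 25% of the cells of the higher cluster, all genes called or else the 8 smallest p in each direction for FGF1, all genes called in the interaction, the highest members of each list, and Mrc1, Pf4 and Lyz2. Some genes that this rule selects are not reported here. The cells and lists were chosen with earlier results of these data known. Alternatives without mice 6 and 22, without mouse 6 in other cells and with listed genes only were chosen after seeing the data. Promoters are RefSeq sequences of GRCm38.p6.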

Additional observations from a re-analysis of the deposited data

Results flagged for a closer look

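Among 52 groups of macrophage values tested for a sample far from the others, 6 were flagged, and chance flags about 1 in 20. Vehicle mouse 22 was far above the other vehicle mice in Cd74 (9487 CPM), H2-Ab1 (2895 CPM) and H2-Eb1 (4268 CPM). These CPM are TMM-scaled over the tested genes. The same mouse had class II UMIs in 62.6% of its microglia, and the part of this in the macrophage values was not tested. Vehicle mouse 20 was far above its group in Nkain4 (821.9 CPM), FGF1 mouse 28 in Rpl13 (4954 CPM), and FGF1 mouse 6 was far below its group in Marcks (602.5 CPM).

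In edgeR the FGF1 effect differed between macrophages and microglia by -8.52 on the log2 scale for Saa3 and by -5.52 for Ms4a7. Neither passed by DESeq2 (adjusted p = 0.999 and 0.200). Without mouse 6 the difference for Ms4a7 was -4.62 (edgeR adjusted p = 0.610). Mouse 6 held 2521 microglial UMIs of Saa3. Outside the whole cells, Mrc1 was found in 22 of 481 nuclei annotated as microglia, in a dataset whose annotation holds no border macrophage type. It was also found in 9 of 301 nuclei of a neuronal type, n06.Oxt.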

How the results depend on the processing

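Alternatives changed the main results as follows. With the authors' batch as a block, calls in macrophages went from 0 to 2 and in microglia from 7 to 14. Among the mice used for macrophages only 3 batches held both treatments. Microglial calls were 96 with no low-count filter (71 higher, 25 lower), 18 by DESeq2 (6 higher, 12 lower), 0 without cells above the 20% limit, 31 without mice 6 and 22 (19 higher, 12 lower), and 0 to 60 with 1 mouse left out. They were 0 without FGF1 mouse 7 or 21 or vehicle mouse 20, 25, 27 or 29, and 2 and 3 without FGF1 mice 10 and 6. They were 18, 40 and 60 without FGF1 mouse 28 and vehicle mice 22 and 35. The interaction gave 0 calls, against 2, by DESeq2, with mice of at least 5 cells, within the 20% limit, with listed genes only and without mice 6 and 22, and 0 to 2 with 1 mouse left out, 0 without FGF1 mouse 6 or vehicle mouse 22. The macrophage share differed by 0.0436 points within the 20% limit, 0.00726 without mice 6 and 22 and -0.0109 for cells with Mrc1 (unlisted in FGF1 mouse 21 and vehicle mouse 27, which count as 0), and with 1 mouse left out by -0.0269 (without FGF1 mouse 6) to 0.383 points. The share of macrophages plus microglia differed by 0.361 points without mice 6 and 22, and by -3.27 to 1.56 points with 1 mouse left out, above 0 without FGF1 mouse 21 or vehicle mouse 22. The class II share differed by 35.5 points with mice of at least 5 cells (exact permutation p = 0.0758, adjusted 0.303), but this adds vehicle mice 27 and 29, at 0%, whose libraries list none and 1 of the 3 genes. UMIs per cell differed by -7.23 (without vehicle mouse 25) to 102.1. Genes higher in microglia numbered 45 by detection after thinning, against 89. The causes were not tested.

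Of 383 alternative values of the 23 genes named in the FGF1 comparison, 372 kept their sign and 2 passed the threshold, S100a6 and Rpl13 under the batch block. The other 11 changed sign and belong to Mrc1 and Rpl13. Mrc1, at 0.01, was -0.021 with no filter, -0.0012 with mice of at least 5 cells, -0.031 within the 20% limit, -0.33 with the batch block and -0.028 without mice 6 and 22, and -0.44 to 0.47 with 1 mouse left out. Rpl13, at -0.62, was 0.30 without mice 6 and 22 and -1.40 to 0.077 with 1 mouse left out. No paired analysis was possible by replicate number because the whole-cell groups share no replicate number. Each authors' batch held 1 FGF1 and 1 vehicle mouse, and the shares were also paired by batch. The macrophage share of all cells was higher with FGF1 in 4 of 6 pairs (exact sign-flip test, p = 0.469). Of macrophages plus microglia, the macrophage share was higher in 2 of 6 pairs (exact sign-flip test, p = 0.875). Depth limits the macrophage comparison to 782 genes in 9 mice.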

Other observations

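In the nuclei, which came from 10 other mice, Mrc1 was found in 354 of 24965 (1.42%), in every mouse, and in 4.57% of the nuclei annotated as microglia. It was also found in 2.99% of the neuronal nuclei annotated n06.Oxt and in 2.72% of ependymal nuclei. Median UMIs were 3880 in microglial nuclei, 3373 in n06.Oxt and 3424.5 in ependymal nuclei. Of the 354 nuclei with Mrc1, 164 had no mapped type. Pf4, found in 42.6% of whole-cell macrophages, was found in 9 nuclei from 2 mice. Cd163 was found in 35 nuclei. F13a1, a transglutaminase subunit of border macrophages, was found in 839 nuclei (3.36%), of which 25 were annotated as microglia and 437 had no mapped type. It was found in 5.20% of the microglia and in 12.3% of the nuclei annotated n06.Oxt, a neuronal type.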
